A study of Mus musculus with 10 samples.

Results

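Alveolar fibroblasts were followed here in whole mouse lung through 8 marker genes: Tcf21, Pdgfra, Npnt, Cdh11, Limch1, Slc7a10, Inmt and Ces1d. They were picked by symbol as markers of that cell type, and all 8 were present among the 27179 Entrez genes of the deposited count table. All 8 also passed the filter on low counts, which left 15301 genes. The tested animals, EpithelialKO, carried Cre on one Shh allele together with homozygous floxed IRE1α (Shh Cre/+ IRE1α fl/fl, 5 mice, numbered 17, 18, 20, 21 and 22). The controls, Flox, had the same homozygous floxed IRE1α without Cre (Shh +/+ IRE1α fl/fl, 5 mice, numbered 2, 3, 4, 5 and 6). Shh is expressed in the lung epithelium from early development, so the design directs the deletion of IRE1α to epithelial cells and not to fibroblasts. The groups also differ in Cre and in the Shh genotype, and these cannot be told apart from the loss of IRE1α. The labels give no age, sex, batch or treatment, and nothing pairs the mice.

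Fibroblasts of the alveolar wall lie beside type 2 epithelial cells, hold lipid and retinoids, and build the elastin and collagen scaffold of the air sacs. They receive PDGF through the alpha receptor and sonic hedgehog from the epithelium, and they send FGF and WNT signals back to it. Tcf21 marks the lipid-bearing cells of this lineage, while the adventitial fibroblasts around bronchi and vessels form a separate population. IRE1α is a stress sensor of the endoplasmic reticulum in the epithelial cells of this design.

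No member passed the test in EpithelialKO lungs. Of the 8, 7 had a negative log2 fold change (EpithelialKO over Flox) and 1, Ces1d, a positive one, with a median of -0.31 against 0.00084 over all 15301 genes, of which 49.9% were negative. The test was the quasi-likelihood test of edgeR with Benjamini-Hochberg adjustment over all tested genes. At an adjusted p under 0.05 it called 0 of the 8 members and 6 genes in all, a background of 0.0392% (0.0327% lower and 0.00654% higher). Without adjustment 4 members were lower (Slc7a10, Npnt, Cdh11 and Pdgfra) and 1 was higher (Ces1d) at p under 0.05, against 6.52% and 5.87% of all tested genes. In no member did the groups separate fully, against 3.12% of all tested genes. In whole lung, fewer fibroblasts, less RNA per fibroblast and a larger share of RNA from other cells cannot be told apart.

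Totals ranged from 16234895 to 18870247 counts in EpithelialKO and from 14983829 to 21224412 in Flox. The lung marker Sftpc averaged 39095 CPM in EpithelialKO and 32975 CPM in Flox, and the AT1 marker Ager 1879 and 1861 CPM. CPM here is the count relative to the TMM-scaled library size. Shh averaged 17.1 ± 5.54 CPM in EpithelialKO and 17.4 ± 4.86 CPM in Flox (SD, n = 5 each). Ern1, which encodes IRE1α, averaged 17.3 ± 6.52 CPM in EpithelialKO and 16.8 ± 5.28 CPM in Flox (SD, n = 5 each), and a count over the whole gene in whole lung does not check an exon deletion in 1 cell class. Flox mice 4 and 6 stood apart, with 3949 and 4866 counts of Xist and 0 counts over 4 Y-linked genes. In the remaining 8 mice Xist had at most 61 counts, and Y-linked genes had at least 2462. By these genes Flox mice 4 and 6 read as female and the remaining 8 mice as male, so sex was not balanced between the groups. Results are therefore also given without Flox mice 4 and 6.

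Per kilobase of annotated exon, members spanned more than 2 orders of magnitude. In EpithelialKO, Inmt had the highest level, 1218 ± 116 CPM per kb (SD, n = 5), followed by Ces1d at 361 ± 35.7. Limch1, Npnt, Tcf21 and Pdgfra followed at 52.9, 35.5, 21.0 and 12.8 CPM per kb, with Cdh11 at 4.47 and Slc7a10 at 3.87. In Flox the levels were 1306 ± 267 CPM per kb for Inmt and 258 ± 79.7 for Ces1d, and 64.1, 51.2, 26.5 and 15.4 for Limch1, Npnt, Tcf21 and Pdgfra. Slc7a10 and Cdh11 closed the order in Flox at 7.27 and 6.37 CPM per kb. Neighbours whose mice overlapped were Limch1 with Npnt and Slc7a10 with Cdh11 in both groups, and in EpithelialKO also Npnt with Tcf21 and Tcf21 with Pdgfra.

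RefSeq start windows in GRCm38.p6, of 250 bases before and 50 after the start, were found for 6 of the members. They are shown for 3 members: the lineage transcription factor Tcf21, Slc7a10 as the member of largest difference, and Inmt as the most abundant one and the only one with the motif searched. That motif was the E-box CAGCTG, of the kind bound by dimers of bHLH factors such as TCF21. It reads the same on both strands and is set in capitals.
Tcf21 (chr10:22820094-22820393, minus strand): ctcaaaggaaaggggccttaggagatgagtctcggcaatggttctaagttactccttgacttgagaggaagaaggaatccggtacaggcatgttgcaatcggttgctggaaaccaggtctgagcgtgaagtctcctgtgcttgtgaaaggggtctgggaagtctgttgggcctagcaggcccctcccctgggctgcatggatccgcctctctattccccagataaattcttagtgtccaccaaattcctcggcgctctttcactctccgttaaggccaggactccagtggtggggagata
Slc7a10 (chr7:35186135-35186434, plus strand): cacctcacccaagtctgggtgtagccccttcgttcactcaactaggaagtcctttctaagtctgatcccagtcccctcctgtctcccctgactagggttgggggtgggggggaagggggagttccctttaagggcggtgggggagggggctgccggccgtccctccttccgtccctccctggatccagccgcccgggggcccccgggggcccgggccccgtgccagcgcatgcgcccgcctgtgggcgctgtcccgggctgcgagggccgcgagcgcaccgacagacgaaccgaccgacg
Inmt (chr6:55174941-55175240, minus strand): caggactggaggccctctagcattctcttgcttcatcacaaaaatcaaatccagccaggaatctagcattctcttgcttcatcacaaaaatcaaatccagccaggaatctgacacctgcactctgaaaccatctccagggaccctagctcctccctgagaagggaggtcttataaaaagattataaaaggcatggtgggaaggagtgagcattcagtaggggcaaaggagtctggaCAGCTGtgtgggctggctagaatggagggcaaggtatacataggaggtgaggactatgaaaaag
The Inmt match began 14 bases before the start. CAGCTG was present in 1 of the 9 member windows and in 16.3% of all 32851 windows of that length. TATAAA on either strand, never overlapping CAGCTG in these windows, occurred in 2 of the 9 windows and in 13.6% of all. The GLI core GACCACCCA, also searched on either strand, was in 0 of the 9 and in 0.253% of all. The Slc7a10 window held 70.7% G and C, the Tcf21 window 53.3% and the Inmt window 47.7%.

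**Figure D1:**
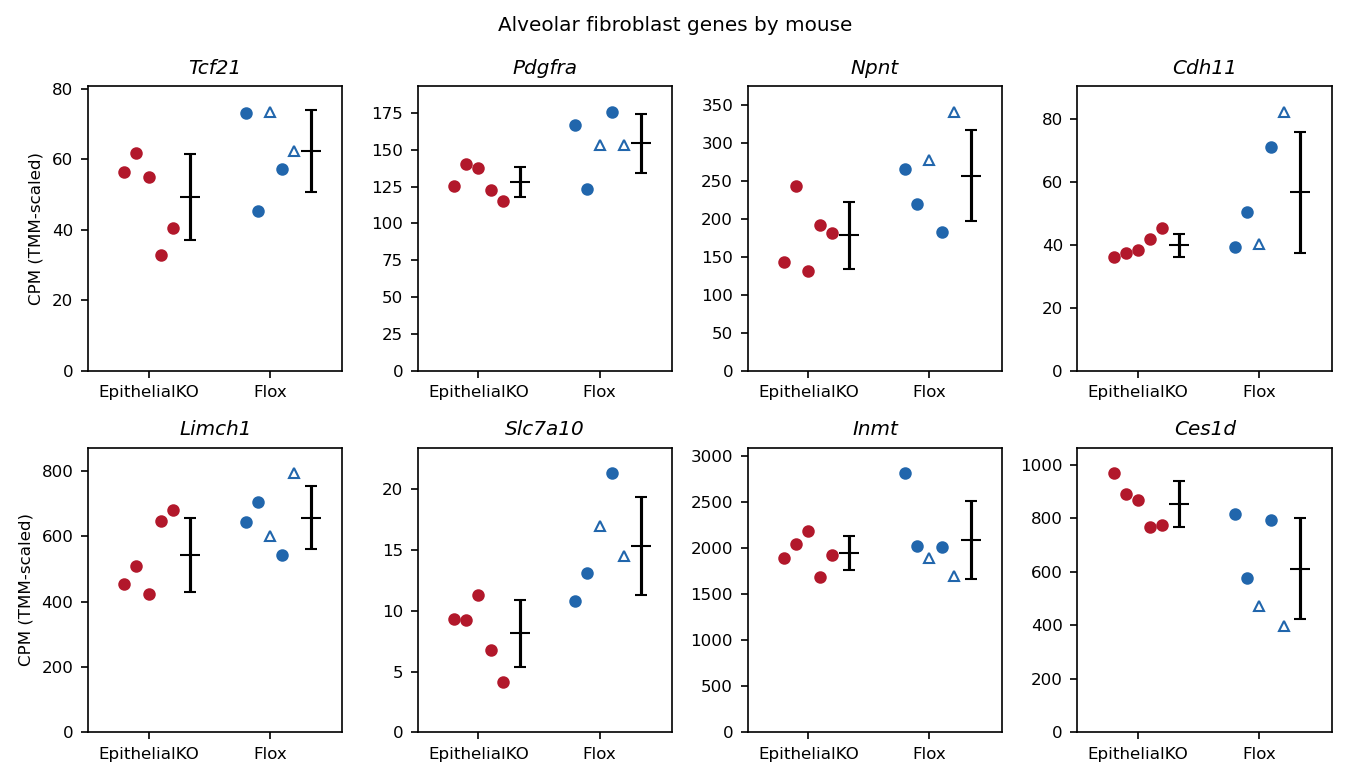
CPM of the 8 genes in each mouse, with EpithelialKO in red on the left and Flox in blue on the right of each panel. Bars give the mean and SD of 5 mice, and open triangles are Flox mice 4 and 6. In no panel are the groups fully separate, and 3 EpithelialKO mice lie above every Flox mouse for Ces1d.

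Tcf21 and Pdgfra define the lineage. Tcf21 encodes a basic helix-loop-helix transcription factor of lung mesenchyme (Entrez 21412, GRCm38 chromosome 10, 22817263 to 22820143). It stood at 56.5, 61.7, 55.0, 32.8 and 40.6 CPM in EpithelialKO mice 17, 18, 20, 21 and 22, against 73.0, 45.4, 73.4, 57.3 and 62.4 CPM in Flox mice 2, 3, 4, 5 and 6. EpithelialKO mice 21 and 22 were below every Flox mouse, and the other 3 lay inside the Flox range. The means were 49.3 ± 12.1 CPM in EpithelialKO and 62.3 ± 11.7 CPM in Flox (SD, n = 5 each). The log2 fold change was -0.34 ± 0.17 (SE; 95% interval -0.70 to 0.02; edgeR adjusted p = 0.436). Leaving out 1 mouse moved it between -0.43 and -0.22, with -0.22 reached without EpithelialKO mouse 21, and without Flox mice 4 and 6 it was -0.25 ± 0.20.

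Pdgfra encodes the PDGF receptor alpha, which transmits the growth signal that fibroblast precursors need to form alveolar walls (Entrez 18595, chromosome 5, 75151322 to 75198206). Its CPM was 125, 140, 138, 123 and 115 in the EpithelialKO mice, in the same order as above, against 167, 123, 153, 176 and 153 in the Flox mice. Flox mouse 3 lay within the EpithelialKO range and the other 4 Flox mice lay above it. The mean was 128 ± 10.5 CPM in EpithelialKO and 154 ± 19.9 CPM in Flox (SD, n = 5 each). The log2 fold change of -0.27 ± 0.10 (SE; 95% interval -0.48 to -0.06) did not pass (edgeR adjusted p = 0.279). It was -0.28 ± 0.13 without Flox mice 4 and 6. Limch1 and Pdgfra are on chromosome 5, which also carries Shh.

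Npnt and Cdh11 encode surface and matrix proteins of these cells. Npnt encodes nephronectin, a basement membrane ligand of integrin α8β1 (Entrez 114249, chromosome 3, 132881745 to 132950291). Npnt stood at 144, 244, 132, 192 and 182 CPM in EpithelialKO mice and at 266, 219, 278, 183 and 341 CPM in Flox mice. EpithelialKO mice 17, 20 and 22 were below every Flox mouse, though mouse 22 was so by less than 1 CPM. The means were 179 ± 44.2 CPM in EpithelialKO and 257 ± 60.3 CPM in Flox (SD, n = 5 each). The log2 fold change was -0.53 ± 0.18 (SE; 95% interval -0.91 to -0.14; edgeR adjusted p = 0.251). It was -0.32 ± 0.18 without Flox mice 4 and 6, which had the 2 highest values.

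Cdh11 encodes cadherin 11, the adhesion protein of mesenchymal cells (Entrez 12552, chromosome 8, 102632095 to 102785493). It read 36.0, 37.4, 38.5, 41.9 and 45.4 CPM in the EpithelialKO mice, and 39.4, 50.5, 40.3, 71.0 and 82.2 CPM in the Flox mice. The EpithelialKO values were close together (39.8 ± 3.77 CPM, SD, n = 5) and the Flox values spread out (56.7 ± 19.2 CPM, SD, n = 5), with mice 5 and 6 high. EpithelialKO mice 17, 18 and 20 lay below every Flox mouse. The log2 fold change of -0.51 ± 0.18 (SE; 95% interval -0.90 to -0.11; edgeR adjusted p = 0.274) became -0.33 without Flox mouse 6, -0.42 ± 0.16 without Flox mice 4 and 6, and -0.30 ± 0.18 with the adipocyte marker score as a covariate.

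Limch1 encodes an actin-binding activator of non-muscle myosin (Entrez 77569, chromosome 5, 66745889 to 67057159), and AT1 cells express it as well. It was at 454, 509, 425, 646 and 680 CPM in EpithelialKO mice, against 644, 705, 602, 544 and 793 CPM in Flox mice. EpithelialKO mice 17, 18 and 20 lay below every Flox mouse, while mice 21 and 22 lay inside the Flox range. The means were 543 ± 115 CPM in EpithelialKO and 658 ± 95.7 CPM in Flox (SD, n = 5 each). Its log2 fold change was -0.28 ± 0.14 (SE; 95% interval -0.57 to 0.01; edgeR adjusted p = 0.430), and -0.22 ± 0.16 without Flox mice 4 and 6. Annotated long non-coding RNAs and pseudogenes overlap the locus, and the strand setting of the counting is not given in the sources used here.

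Slc7a10 had the largest difference among the members, at the lowest level. It encodes Asc-1, a transporter of small neutral amino acids including D-serine, and is also a surface marker of white adipocytes (Entrez 53896, chromosome 7, 35186095 to 35201116). Its CPM was 9.35, 9.23, 11.3, 6.81 and 4.11 in EpithelialKO mice, against 10.8, 13.1, 17.0, 21.3 and 14.5 in Flox mice. Of the EpithelialKO mice 4 were below every Flox mouse, and mouse 20 lay just above Flox mouse 2. These values rest on 73 to 181 counts per EpithelialKO mouse and 232 to 320 per Flox mouse. The means were 8.16 ± 2.77 CPM in EpithelialKO and 15.4 ± 4.01 CPM in Flox (SD, n = 5 each).

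The log2 fold change of Slc7a10 was -0.91 ± 0.25 (SE; 95% interval -1.43 to -0.39) with an edgeR adjusted p of 0.153. The Wald test of DESeq2 gave -0.92 ± 0.25 and an adjusted p of 0.0247, and the adjusted p lay between 0.0247 and 0.523 over all 18 alternatives. Without Flox mice 4 and 6 the log2 fold change was -0.88 ± 0.30. Adipocyte markers ran the other way: all 10 tested of 12 had a positive fold change, with 0 called. Their summed level was 274 to 525 CPM in EpithelialKO and 210 to 511 CPM in Flox. Adipoq, the defining adipokine, averaged 10.7 and 7.13 CPM, and Lep and Ucp1 were below the count filter. With the adipocyte marker score as a covariate, the log2 fold change of Slc7a10 was -0.86 ± 0.27 (SE, edgeR adjusted p = 0.312). The part of adipocytes in the Slc7a10 level was not tested. The Slc7a10 locus overlaps that of Lrp3, which averaged 6.89 ± 1.35 CPM in EpithelialKO and 8.76 ± 2.52 CPM in Flox (SD, n = 5 each).

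Inmt and Ces1d are the abundant enzymes of the group. Inmt encodes indolethylamine N-methyltransferase, which methylates tryptamine and related amines (Entrez 21743, chromosome 6, 55170627 to 55174990). Its levels were 1897, 2045, 2188, 1686 and 1930 CPM in EpithelialKO mice, against 2815, 2028, 1893, 2011 and 1697 CPM in Flox mice. Flox mouse 2 was the highest of all, and the other Flox mice lay inside the EpithelialKO range. The means were 1949 ± 186 CPM in EpithelialKO and 2089 ± 427 CPM in Flox (SD, n = 5 each). The log2 fold change was -0.10 ± 0.12 (SE; 95% interval -0.36 to 0.16; edgeR adjusted p = 0.796), and 0.032 without Flox mouse 2. Without Flox mice 4 and 6 it was -0.23 ± 0.13.

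Ces1d encodes a carboxylesterase that hydrolyses triglycerides and drug esters (Entrez 104158, chromosome 8, 93166072 to 93197804). It stood at 968, 892, 870, 766 and 775 CPM in EpithelialKO mice and at 818, 578, 472, 793 and 396 CPM in Flox mice. EpithelialKO mice 17, 18 and 20 were above every Flox mouse, and the lowest values were those of Flox mice 4 and 6. The means were 854 ± 84.7 CPM in EpithelialKO and 611 ± 189 CPM in Flox (SD, n = 5 each). Its log2 fold change was 0.48 ± 0.17 (SE; 95% interval 0.11 to 0.86; edgeR adjusted p = 0.274), and 0.23 ± 0.13 without Flox mice 4 and 6. Ces1d belongs to a cluster of similar genes, so reads may have been split among them. Hepatocytes express it strongly, and the liver gene Alb averaged 32.5 CPM in EpithelialKO and 16.7 CPM in Flox. The 4 tested hepatocyte markers of 5 had positive fold changes with 0 called, and summed to 32.0 to 93.7 CPM in EpithelialKO and 20.9 to 42.3 CPM in Flox. Across the mice, within groups, Ces1d had Pearson r = 0.03 and Spearman rho = -0.30 with these markers, and r = -0.55 without Flox mice 4 and 6. With group means removed, these correlations cannot speak to the difference between groups. The part of liver RNA in the Ces1d level was not tested.

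**Figure D2:**
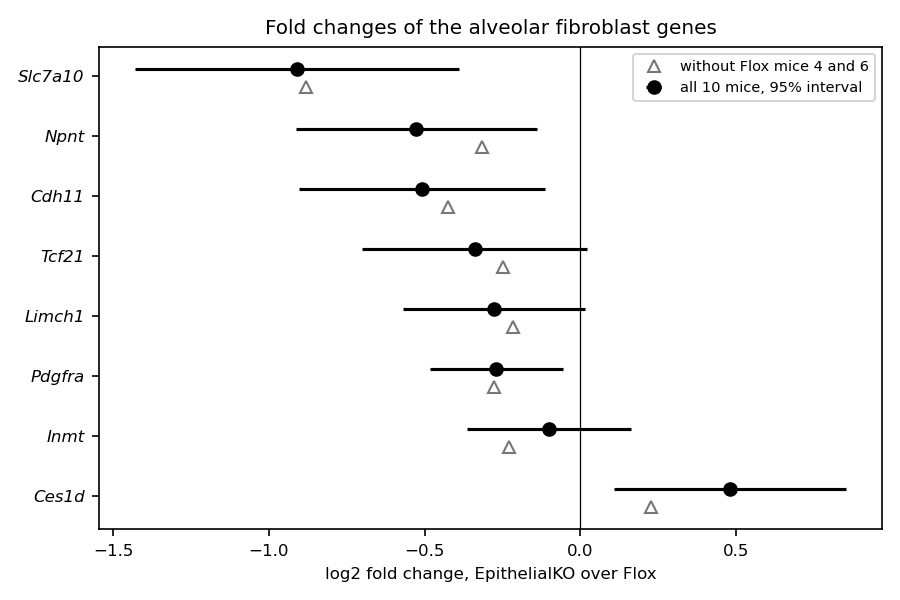
Log2 fold change of each gene in EpithelialKO over Flox. Points with bars are the edgeR estimate and 95% interval on 10 mice, and triangles are estimates without Flox mice 4 and 6. Slc7a10 lies farthest to the left at -0.91, Ces1d alone lies to the right of 0, and its estimate moves from 0.48 to 0.23 without those mice.

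The 8 genes did not vary as 1 unit across mice. After the mean of each group was removed, 15 of the 28 pairs had a positive correlation of log2 CPM over the 10 mice, with a median Pearson r of 0.03. The highest was Inmt with Ces1d (r = 0.74, Spearman rho = 0.67) and the lowest Limch1 with Slc7a10 (r = -0.81, rho = -0.87). Tcf21 and Pdgfra had r = 0.64 and rho = 0.58. Without Flox mice 4 and 6 the order at the top was another: Ces1d had r = 0.84 with Pdgfra (0.43 over 10 mice) and 0.82 with Tcf21 (0.20 over 10 mice), and 0.52 with Inmt. Tcf21 with Inmt was at 0.76 and Tcf21 with Pdgfra at 0.68 in those 8 mice, and Limch1 with Slc7a10 was again lowest at -0.88. Genes measured in the same libraries share depth and composition, so these values describe the mice and carry no test. Within EpithelialKO, mice 21 and 22 had the lowest Tcf21, Pdgfra, Slc7a10 and Ces1d and the highest Limch1 and Cdh11. The same 2 mice had the highest summed AT1 markers, 8106 and 9823 CPM against 6019 to 7523 CPM in the other 3. Their AT2 sums were 60315 and 61352 CPM, against 49654 to 50836 CPM. Their mesothelial sums were 774 and 721 CPM, against 338 to 486 CPM. The part of these cell types in the members' levels was not tested.

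The members were also set against cell type lists. Limch1 followed the AT1 markers (r = 0.86, rho = 0.85; r = 0.91 without Flox mice 4 and 6), and Npnt the AT2 markers (r = 0.71, rho = 0.78; r = 0.69 without them). Tcf21, Pdgfra and Slc7a10 followed the pericyte markers, with r = 0.71, 0.73 and 0.70. Pdgfra ran opposite to the adventitial fibroblast genes (r = -0.85, rho = -0.83) and Tcf21 opposite to the mesothelial markers (r = -0.80, rho = -0.90). With the 20 other alveolar fibroblast genes, r was 0.50 for Npnt, 0.49 for Tcf21, 0.36 for Pdgfra, 0.35 for Slc7a10 and 0.15 for Cdh11. For Inmt, Limch1 and Ces1d it was -0.04, -0.07 and -0.31. Without Flox mice 4 and 6 the sign turned for Inmt (0.56), Ces1d (0.43) and Cdh11 (-0.64), while Limch1 was at -0.55. In those 8 mice r was 0.68 for Tcf21, 0.51 for Pdgfra, 0.52 for Slc7a10 and 0.26 for Npnt. Other lists gave higher values for some of them there, 0.75 with the pericyte markers for Tcf21, 0.71 with the same markers for Slc7a10 and 0.69 with the AT2 markers for Npnt. A list of 8 club cell genes was chosen after Ces1d was seen to vary with one of them, Cyp2f2, so its r of 0.96 with Ces1d restates that choice. Without Flox mice 4 and 6 this list had r = 0.87 with Ces1d and 0.85 with Tcf21. Counts of whole lung do not assign a member to a cell type, and the label was not tested.

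**Figure D3:**
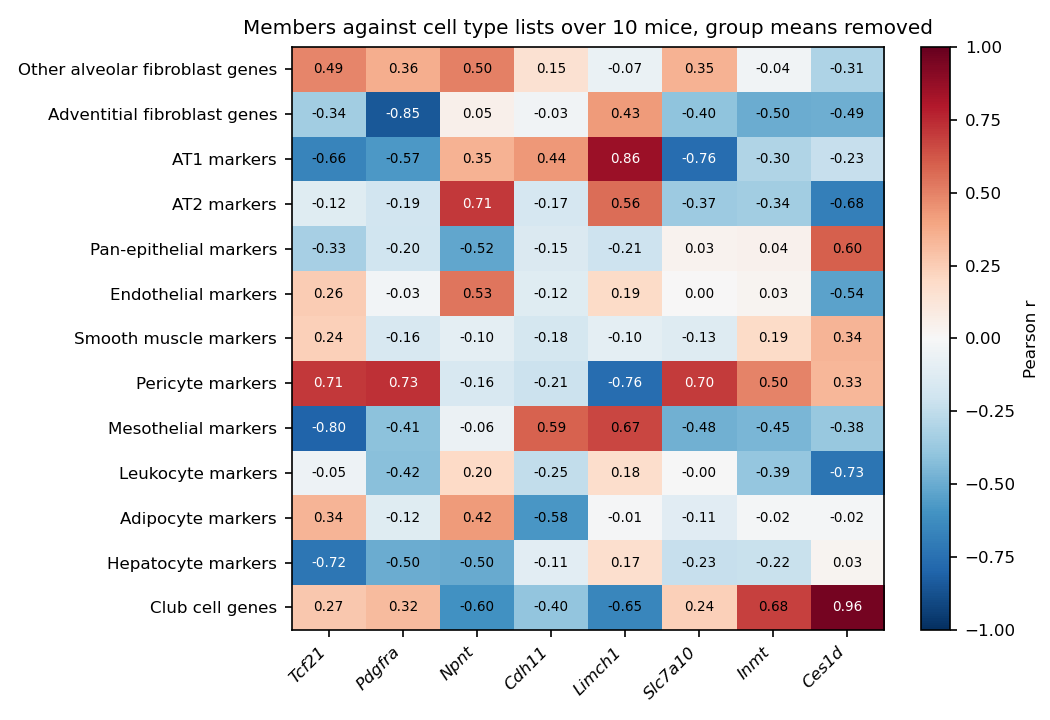
Pearson r between the log2 CPM of each member (columns) and the mean log2 CPM of each cell type list (rows) over 10 mice, after the mean of EpithelialKO and of Flox was removed. Red is positive and blue negative, and Limch1 with AT1 markers stands at 0.86. The club cell list in the lowest row was chosen because its gene Cyp2f2 varied with Ces1d, so its value of 0.96 is no separate result.

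The genes with the most similar pattern were sought among 14495 tested genes with a mean of at least 1 CPM, so high values are found for any gene. For Ces1d they included Scnn1b and Cyp2f2, both at r = 0.97 and rho = 0.99 over 10 mice. Scnn1b encodes an epithelial sodium channel subunit and Cyp2f2 the cytochrome P450 that marks club cells. Cyp2f2 stood at 4500, 4456, 4048, 3279 and 3468 CPM in EpithelialKO mice, against 3896, 2698, 2376, 3541 and 1607 CPM in Flox mice. On the log2 scale Cyp2f2 differed by 0.48 ± 0.20 (SE) with an edgeR adjusted p of 0.331, as large as Ces1d, and without Flox mice 4 and 6 both were at 0.23. All 8 club cell genes had a positive fold change, with a median of 0.49, and 0 were called. Without those mice 7 of the 8 were positive, with a median of 0.27. The list was chosen after Ces1d was seen to vary with Cyp2f2, so its shared direction with Ces1d is no separate result.

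For the other members the nearest genes were less tied to a cell type. Those of Limch1 were Cgnl1, a junction protein of epithelium and endothelium, Suox and Trmt10a (r = 0.98, 0.98 and 0.97). Those of Pdgfra were Smug1, Kitl and Dhx30 (r = 0.97, 0.95 and 0.94), where Kitl encodes stem cell factor. Tcf21 was most like Arhgap25, Nme7 and Cyb5rl (r = 0.95, 0.93 and 0.92), and Npnt most like Gapvd1, Tstd2 and Ythdf1 (r = 0.96, 0.95 and 0.94). Slc7a10 was nearest to Mapk11, Aoc2 and Ckb (r = 0.95 each), Cdh11 to Cask, Dph6 and Senp6 (r = 0.94, 0.91 and 0.91), and Inmt to Zcchc3, Selenbp1 and Mthfd1l (r = 0.94, 0.92 and 0.92). No adventitial or other alveolar fibroblast gene of the lists was among the genes named here. Without Flox mice 4 and 6 the correlations of these pairs lay between 0.83 and 0.99, lowest for Cdh11 with Dph6. None of these genes was then the nearest of the 14495. Cgnl1 ranked 2 for Limch1 and Arhgap25 ranked 4 for Tcf21, and the remaining genes named here ranked 5 or further down. Cask, Dph6 and Senp6 ranked 161, 252 and 65 for Cdh11, and Selenbp1 ranked 77 for Inmt.

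**Figure D4:**
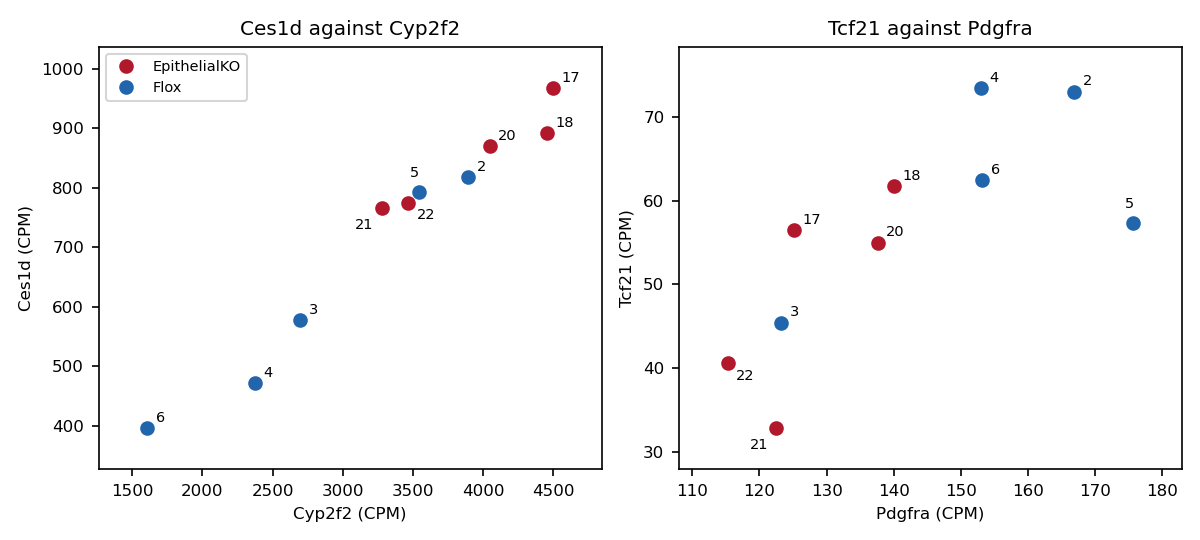
Each point is 1 mouse, numbered, with EpithelialKO in red and Flox in blue, and both axes in CPM. On the left Ces1d is plotted against the club cell gene Cyp2f2, and all 10 mice lie near 1 line from Flox mouse 6 to EpithelialKO mouse 17. On the right Tcf21 is plotted against Pdgfra, where EpithelialKO mice 21 and 22 and Flox mouse 3 are low in both.

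The wider alveolar fibroblast programme was described with a list of further genes. All 20 other alveolar fibroblast genes were tested and all 20 had a negative log2 fold change, with a median of -0.45, or -0.40 without Flox mice 4 and 6. None passed over all genes (lowest edgeR adjusted p = 0.103), and 15 were lower at an unadjusted p under 0.05, against 6.52% of all tested genes. Groups were fully separate in 5 of the 20, against 1.48% of all genes for that direction. These were the secreted hedgehog cofactor Scube2, the FGF receptor Fgfr4, the transmembrane collagen Col13a1, the lymphangiogenic ligand Vegfd and the guidance cue Slit2, of which Fgfr4, Col13a1 and Slit2 are named after their values were seen. Summed over all 20 genes, the level was 1495 to 1720 CPM in EpithelialKO and 1947 to 2534 CPM in Flox. Flox mice 4 and 6 had the highest sums, 2167 and 2534 CPM, against 1947 to 2026 CPM in the other Flox mice.

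Among them Scube2 averaged 11.2 ± 2.85 CPM in EpithelialKO and 23.2 ± 7.69 CPM in Flox (SD, n = 5 each), with a log2 fold change of -1.05 ± 0.23 (SE). Without Flox mice 4 and 6 it was -0.72 ± 0.23. Vegfd averaged 17.7 ± 2.05 CPM in EpithelialKO and 26.0 ± 1.30 CPM in Flox, with -0.55 ± 0.12. The microfibril protein Mfap4 averaged 186 ± 39.3 CPM in EpithelialKO and 323 ± 92.5 CPM in Flox, and the chemokine Cxcl14 65.3 ± 11.9 and 92.8 ± 10.1 CPM. Flox mice 4 and 6 had the highest Mfap4, 413 and 431 CPM, against 229 to 272 CPM in the other Flox mice. The log2 fold change of Mfap4 was -0.79 ± 0.19 (SE), and -0.46 without Flox mice 4 and 6. Endothelial markers, of the cells that share the alveolar wall, were all negative (10 of 10, median -0.39), as were smooth muscle markers (8 of 8, median -0.48, or -0.62 without Flox mice 4 and 6). At an unadjusted p under 0.05, 8 of the 10 endothelial and 5 of the 8 smooth muscle markers were lower and 0 higher. Groups were fully separate in 3 endothelial and 2 smooth muscle markers. Endothelial sums did not overlap, at 2405 to 3008 CPM in EpithelialKO and 3112 to 3994 CPM in Flox, while smooth muscle sums did. These traits were therefore not particular to the alveolar fibroblast list. Mesothelial markers were negative in 5 of 6 (median -0.55) and pericyte markers in 7 of 8 (median -0.14). At an unadjusted p under 0.05, however, 0 of the 6 mesothelial markers were lower and 1 was higher. Mesothelial sums overlapped, at 338 to 774 CPM in EpithelialKO and 467 to 813 CPM in Flox. Of the 8 pericyte markers, 3 were lower and 0 higher at an unadjusted p under 0.05, and groups were fully separate in 2. Pericyte sums overlapped, at 246 to 385 CPM in EpithelialKO and 308 to 381 CPM in Flox. AT2 markers were all positive (10 of 10, median 0.24), and so were pan-epithelial markers (8 of 8, median 0.34). None of the genes of these lists was called. AT1 markers were mixed, with 7 of 12 negative and a median of -0.02.

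Adventitial fibroblast genes gave smaller values. Of 16 tested, 13 were negative, with a median of -0.14, or -0.07 without Flox mice 4 and 6, and 0 were called (lowest edgeR adjusted p = 0.249). Their sums overlapped, at 1468 to 1862 CPM in EpithelialKO and 1584 to 1911 CPM in Flox. The elastic fibre protein Mfap5 had the lowest p, with a log2 fold change of -0.34 ± 0.12 (SE). The eosinophil chemokine Ccl11 had 0.73 ± 0.33, the basement membrane collagen Col15a1 -0.61 ± 0.27 and Igfbp4, which binds insulin-like growth factors, -0.20 ± 0.11. The difference between the adventitial and the alveolar lists was not tested.

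**Figure D5:**
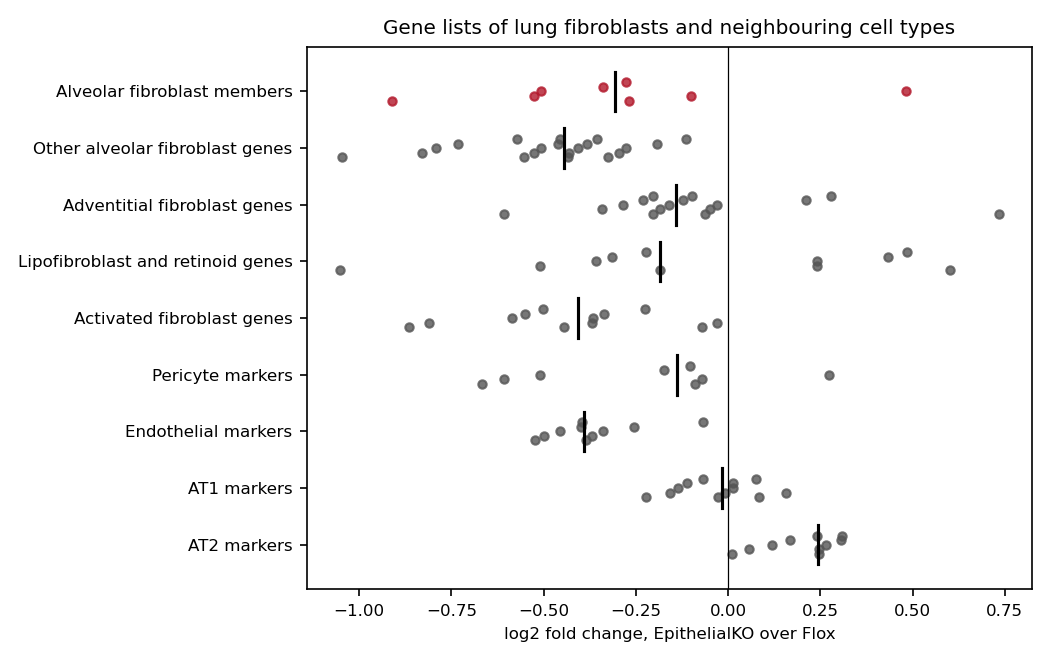
Log2 fold change in EpithelialKO over Flox of every tested gene of 9 lists, 1 point per gene, with the list median as a vertical bar. The 8 members are in red at the top with a median of -0.31, all 20 other alveolar fibroblast genes lie left of 0, and AT2 markers lie right of it.

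Lipid and retinoid genes of the lipofibroblast were mixed in sign. Of 11 tested of 12, 6 were negative and 5 positive, with a median of -0.18, or -0.10 without Flox mice 4 and 6. G0s2 had no counts in any mouse. Pparg, the adipogenic nuclear receptor, averaged 23.9 ± 3.53 CPM in EpithelialKO and 15.8 ± 2.88 CPM in Flox (SD, n = 5 each), with every EpithelialKO mouse above every Flox mouse. Its log2 fold change was 0.60 ± 0.15 (SE, edgeR adjusted p = 0.139). Lrat, the enzyme that esterifies retinol for storage, averaged 20.8 ± 7.36 CPM in EpithelialKO and 43.1 ± 15.9 CPM in Flox, with -1.05 ± 0.29. The lipoprotein lipase Lpl had 0.24 ± 0.10 and the retinol carrier Rbp4 0.43 ± 0.16. AT2 cells, macrophages and adipocytes also use Pparg and Lpl, and the sources of these counts cannot be told apart.

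Of the PDGF family, the receptor beta, Pdgfrb, which marks pericytes and fibroblasts, averaged 49.8 ± 12.5 CPM in EpithelialKO and 76.6 ± 12.2 CPM in Flox (SD, n = 5 each). Its log2 fold change was -0.62 ± 0.16 (SE, edgeR adjusted p = 0.140). Pdgfa, the epithelial ligand of the alpha receptor, had 0.14 ± 0.11, Pdgfb -0.26 ± 0.15, Pdgfc 0.12 ± 0.29 and Pdgfd -0.07 ± 0.25. None of these 5 was called, and ligands and receptors were not tested against each other. Of the genes of activated fibroblasts, all 12 tested of 14 were negative, with a median of -0.41, or -0.28 with 9 negative without Flox mice 4 and 6. Among them the fibrillar collagen Col5a1 had -0.59 ± 0.13, fibronectin Fn1 -0.50 ± 0.11, the WNT inhibitor Sfrp1 -0.86 ± 0.22 and Col1a1 -0.55 ± 0.16. Lrrc15 and Grem1 were below the count filter, and 0 of the 12 were called. Summed over all 14 genes, the level was 784 to 887 CPM in EpithelialKO and 907 to 1433 CPM in Flox, with no overlap. Flox mice 4 and 6 had the highest sums, 1205 and 1433 CPM, against 907 to 962 CPM in the other Flox mice.

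Adhesion partners of the members were mixed. Among 9 other cadherin and catenin genes 6 were negative, with a median of -0.07 and 0 called. The epithelial cadherin Cdh1 had 0.31 ± 0.11, the endothelial cadherin Cdh5 -0.52 ± 0.23, p120 catenin Ctnnd1 -0.27 ± 0.12 and the neural cadherin Cdh2 -0.35 ± 0.28. Of the 7 nephronectin partners, 4 were negative and 0 called. Itga8, the alpha chain of the nephronectin receptor, averaged 122 ± 15.6 CPM in EpithelialKO and 150 ± 12.4 CPM in Flox (SD, n = 5 each), with -0.30 ± 0.10, and is also among the 20 other alveolar fibroblast genes. Fras1 and Frem1, of the basement membrane complex that holds nephronectin, had -1.16 ± 0.54 and -0.25 ± 0.21, and the related ligand Egfl6 0.17 ± 0.16.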

How the data were processed

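Polyadenylated RNA of whole lung was sequenced from 5 EpithelialKO and 5 Flox mice. The submitters' processing notes list cutadapt, HISAT2 and the build GRCm38. Details of gene counting (tool, annotation, strand) were not given in the sources used here. Unnormalized counts were deposited by the authors by Entrez gene, with 1 column for each mouse. Symbols and coordinates came from RefSeq on GRCm38 (25275 of 27179 genes matched), and exon lengths from GENCODE on the same build.

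Low counts were removed with filterByExpr, which left 15301 genes. TMM scaling and the robust quasi-likelihood test of edgeR 4.0.16 (R 4.3.3) were used with group as the only term, all 10 mice, and Benjamini-Hochberg adjustment at 0.05. Each SE is the log2 fold change over the root of its F statistic. The fit was tested on simulated data. Correlations used log2 CPM with a prior count of 2. With 5 mice per group, the spread between mice sets the precision.

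The members and lists were chosen with earlier results of these data known, so no list was tested as a set. Named beyond the members are up to 4 genes of each list with the lowest p, lists of 5 whole, cell type markers, and the 3 genes of most similar pattern per member, of which 1 is not reported here. Alternatives used DESeq2 1.42.0, limma 3.58.1, other scalings and filters, an adipocyte covariate, and fewer mice. The club cell list and the correlations and similar patterns without Flox mice 4 and 6 were added after seeing the data.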

Additional observations from a re-analysis of the deposited data

How the results depend on the processing

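No paired analysis was possible because the groups share no mouse numbers. Across 18 alternatives the 8 members kept their direction and their side of the threshold in 142 of 144 cases. The exceptions were Slc7a10, called by DESeq2 (-0.92), and Inmt, whose log2 fold change ran from -0.17 to 0.032 with 1 mouse left out and was positive only without Flox mouse 2. Members called were 0 in every alternative except 1 under the DESeq2 Wald test, and 0 at an adjusted p under 0.1. Their median ran from -0.39 to -0.28 with 1 mouse left out, and every other alternative stayed within the spread between mice. The count of all genes called was 6 and moved to 34 with no count filter, 0 with the adipocyte covariate (1624 at an unadjusted p under 0.05), 0 without Flox mice 4 and 6 (1207 genes at an unadjusted p under 0.05), 279 under DESeq2, 29 under limma-voom and 38 at an adjusted p under 0.1. With 1 mouse left out it ranged from 0 to 48, the highest without Flox mouse 5 and 0 in each of the other 9 fits (1444 to 1960 at an unadjusted p under 0.05). Where a fit called 0 genes in all, no member could pass, so its unchanged side of the threshold carries no information. Mean levels on total counts (16 of 16) stayed within 1 SD, and the median correlation between members was 0.03 with a prior count of 0.5. The median of the lipofibroblast list was -0.10 without Flox mice 4 and 6 and -0.18 with them, and that of the PDGF list was 0.13 without Flox mice 4 and 6 and -0.07 with them. The depth limits Slc7a10 most, which had 73 counts in EpithelialKO mouse 22.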

Other observations

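Relatives of 2 members in gene family gave no call. In the Ces1 carboxylesterase cluster, counted with Ces1d itself, the 5 tested of 8 genes all had positive log2 fold changes, with a median of 0.33. Without Flox mice 4 and 6, however, 3 of the 5 were negative and the median was -0.13. Ces1d made up nearly all of the cluster's counts. Ces1e averaged 15.3 ± 3.35 CPM in EpithelialKO and 12.2 ± 7.34 CPM in Flox (SD, n = 5 each), and Ces1g 10.01 ± 1.97 CPM in EpithelialKO and 8.27 ± 4.92 CPM in Flox. Ces1a, Ces1c and Ces1h were below the count filter.

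Among 5 transporters related to Slc7a10, Slc7a5, the large neutral amino acid carrier, ran opposite to it. It averaged 16.2 ± 3.43 CPM in EpithelialKO and 10.4 ± 3.40 CPM in Flox (SD, n = 5 each), with every EpithelialKO mouse above every Flox mouse, a log2 fold change of 0.63 ± 0.23 (SE) and an edgeR adjusted p of 0.274. Slc3a2, the heavy chain with which Slc7a10 and Slc7a5 pair, had -0.12 ± 0.12. Slc7a8 had -0.44 ± 0.38, Slc7a6 0.16 ± 0.16 and Slc7a7 0.02 ± 0.14.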
